A study of Mus musculus with 12 samples.

Results

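Integrins are adhesion receptors built from an α and a β subunit, and the pairing sets which ligand a cell can hold. Leukocytes use the β2 integrins LFA-1 (αL with β2) and Mac-1 (αM with β2) to adhere to ICAM molecules, and Mac-1 to take up opsonized particles. They use α4β1, α4β7 and α5β1 to bind VCAM-1, MAdCAM-1 and fibronectin. The αv subunit, paired with β3 or other β subunits, binds RGD-containing proteins such as vitronectin, osteopontin and thrombospondin-1, and α9, which pairs with β1, binds osteopontin and tenascin-C.

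The transcripts of 10 integrin subunit genes (*Itgav*, *Itgb3*, *Itga9*, *Itgb1*, *Itga5*, *Itga4*, *Itgb7*, *Itgam*, *Itgal* and *Itgb2*) were followed in mouse bone marrow neutrophils and in macrophages grown from bone marrow monocytes. The genes were taken by symbol, and the 10 symbols stood on 11 of the 52636 rows of each deposited count table, because *Itgam* was listed under a pair of Ensembl identifiers. Neutrophils and monocytes came from femora and tibiae of C57BL/6J mice aged 8 to 12 weeks. Neutrophils, obtained by negative enrichment, were treated directly with 1 nM CGRP (calcitonin gene-related peptide, a neuropeptide of sensory nerves) or with PBS for 4 h. Monocytes were held in M-CSF (10 ng/ml), which drives macrophage differentiation, over 3 days before they received the same CGRP or PBS for 4 h. The labels call these cells monocyte/macrophage, and they are called macrophages here. Each of the 4 groups had 3 libraries, 12 in all. The cell types also differ in culture medium and in time in culture, which cannot be told apart from cell type.

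Total counts per library were between 2719556 and 3631989 in PBS neutrophils, 2196558 and 3270388 in CGRP neutrophils, 2536415 and 3477069 in PBS macrophages and 2002559 and 3259073 in CGRP macrophages. A count of 3, taken as the floor, corresponded to 0.826 to 1.5 CPM (a gene's count scaled to a common library size), and this floor covers counting error only. Levels are given as CPM after TMM scaling over the 12 libraries. No label states that the replicates came from separate mice or cultures, so p-values measure the spread between these libraries, which may be technical.

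The libraries carried the markers of their labelled cells. Summed neutrophil markers (11 genes, *S100a8* the most abundant) were between 157464 and 236199 CPM in neutrophil libraries and between 302 and 446 CPM in macrophage libraries, where *Ly6g* had 0 to 3 counts. Summed monocyte and macrophage markers (12 genes) were between 11363 and 13765 CPM in macrophages, where *C1qb* was the most abundant, and between 2777 and 4113 CPM in neutrophils, where *Ly6c2*, a monocyte surface antigen, made up most of the sum (2706 ± 390 CPM with PBS and 2254 ± 400.0 CPM with CGRP, SD, n = 3 each). The neutrophil libraries also held markers of erythroid cells (6 genes, *Hbb-bs* the most abundant, 4149 to 5389 CPM), B cells (8 genes, *Cd79b*, 115 to 138 CPM), T and NK cells (7 genes, *Nkg7*, 82.7 to 130 CPM), stromal and endothelial cells (6 genes, *Col1a2*, 61.3 to 82.5 CPM) and dendritic cells (5 genes, *Flt3*, 10.1 to 16.7 CPM), besides basophils, eosinophils and platelets. In such bulk samples, fewer cells of a type and less RNA per cell cannot be told apart.

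With CGRP, 3 subunits passed the test in 1 cell type each. *Itgb3*, the β3 subunit, fell 3.89-fold in neutrophils. In macrophages *Itgav*, the αv subunit with which β3 pairs, fell 2.16-fold. *Itga9* rose there, but this call passed in only 4 of 7 other ways of processing and in 2 of 6 fits without 1 library. The β2 family, which made up most of the summed counts of these 10 genes in both cell types, did not pass the test in either. The plot of levels in each library shows the 10 genes side by side.

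**Figure D1:**
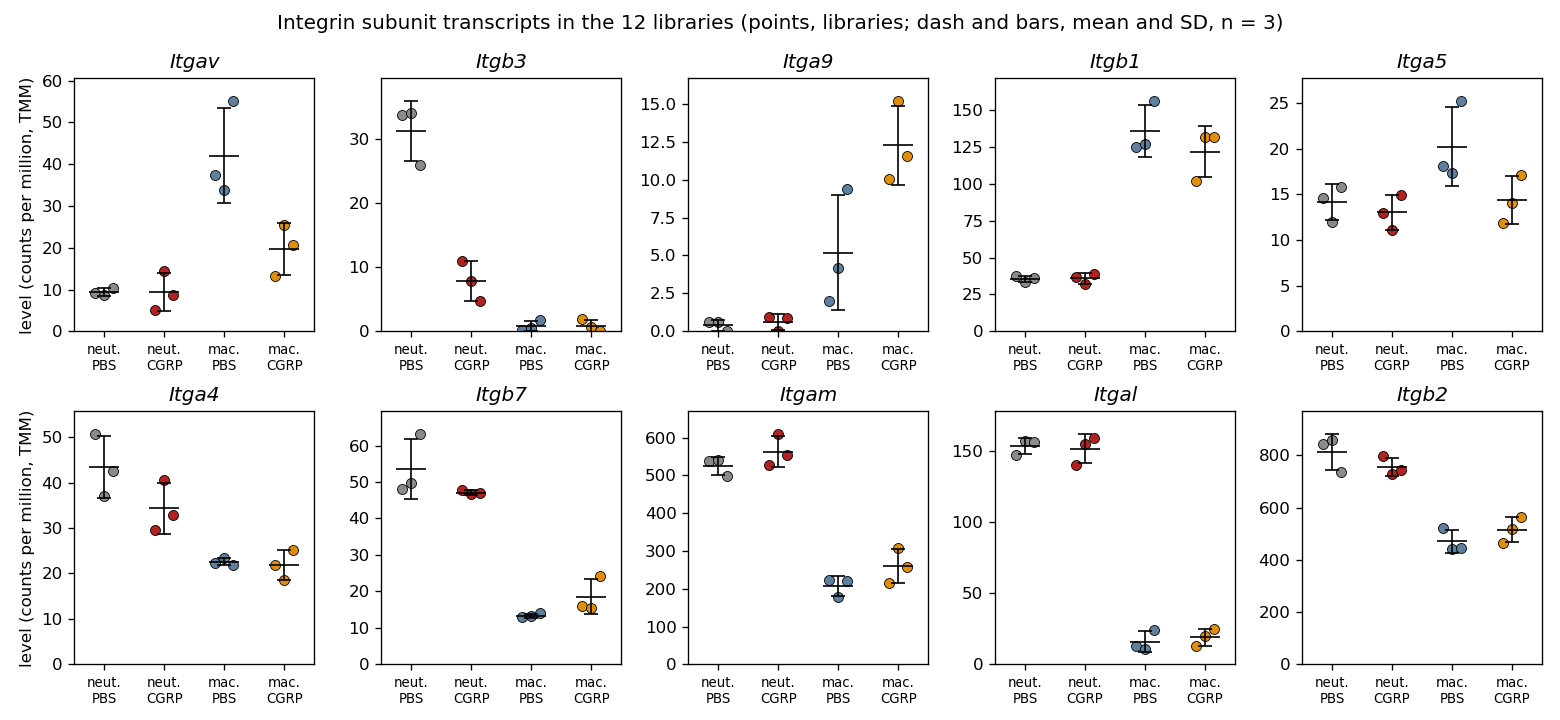
Level of each integrin subunit gene (y axis, CPM after TMM scaling, from 0) in the 12 libraries, by group (x axis). Points are libraries, and the dash and bars are the mean and SD (n = 3). The 3 CGRP neutrophil libraries lie at 4.82 to 11.1 CPM for Itgb3, below the 25.9 to 34.1 CPM of the PBS libraries, and the 3 CGRP macrophage libraries lie below all PBS macrophage libraries for Itgav.

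*Itgb3* (ENSMUSG00000020689, chr11:104608000-104670476, plus strand, GRCm38) had 33.8, 34.1 and 25.9 CPM in the PBS neutrophil libraries and 11.1, 7.92 and 4.82 CPM in the CGRP libraries, from 107, 111 and 72 counts against 34, 27 and 11. All 3 CGRP libraries lay below all 3 PBS libraries. The mean level was 31.3 ± 4.63 CPM with PBS and 7.93 ± 3.12 CPM with CGRP (SD, n = 3 each). The log2 fold change was -1.96 (SE 0.26, 95% interval -2.49 to -1.43), which is 3.89-fold lower (limma-voom, adjusted p = 7.51e-05). It passed the threshold in each of the 8 other ways of processing and in each of the 6 fits without 1 library.

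In macrophages *Itgb3* was close to the floor. Its counts were 1, 2 and 5 with PBS and 6, 2 and 0 with CGRP, equal to means of 0.895 ± 0.798 and 0.873 ± 0.947 CPM (SD, n = 3 each). The groups overlapped, the gene was left out by the filter on low counts, and no effect of CGRP was detectable at this depth.

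Because β3 is also the β subunit of the platelet fibrinogen receptor, the markers of platelets and of other cells were set beside *Itgb3* in the neutrophil libraries. The 12 platelet and megakaryocyte markers summed to 172, 171 and 168 CPM with PBS and to 197, 131 and 197 CPM with CGRP, so that the PBS values lay between those with CGRP. *Pf4*, which made up most of this sum and was also present in the macrophage libraries, had 452, 467 and 392 counts with PBS and 498, 368 and 370 with CGRP, with a log2 fold change of -0.01 (SE 0.12, limma-voom, adjusted p = 0.990). *Ppbp* and *Gp9*, the other defining markers, had 37 to 45 and 5 to 9 counts with PBS and 37 to 48 and 8 to 9 counts with CGRP. *Itga2b*, the α subunit that pairs with β3 on platelets, had 21, 22 and 18 counts against 28, 14 and 5 (log2 fold change -0.49, SE 0.38, limma-voom, adjusted p = 0.667). In each neutrophil library, 6 to 9 of the 12 markers had a count. Of the 4 platelet markers tested, 0 passed in limma-voom, edgeR or DESeq2, and 0 had an unadjusted p under 0.05.

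Basophil and mast cell markers (6 genes, *Prss34* the most abundant) summed to 1163, 1184 and 980 CPM with PBS and to 1142, 963 and 1090 CPM with CGRP. Eosinophil markers (5 genes, *Prg2* the most abundant) summed to 577, 645 and 580 CPM against 614, 525 and 631 CPM. Neither sum separated the groups. Among 34 tested markers of 8 cell types other than neutrophils and monocytes, 0 passed in limma-voom, edgeR or DESeq2, and 2 had an unadjusted p under 0.05. *Kit*, a receptor of mast cells and progenitors, was 1 of these 2 in the basophil and mast cell list, with 32, 27 and 27 counts against 16, 15 and 14 (log2 fold change -0.83, SE 0.29, limma-voom, adjusted p = 0.169). The other was *Nkg7*, with 307, 339 and 301 counts against 292, 232 and 195 (log2 fold change -0.32, SE 0.12, limma-voom, adjusted p = 0.198). Its list, the T and NK cell markers, did separate the groups. The sums were 114, 126 and 130 CPM with PBS and 110, 82.7 and 105 CPM with CGRP. In the monocyte and macrophage list, 1 of 11 tested genes passed, where 2.53% of all tested genes did, and 4 were higher and 7 lower. The gene that passed was *Ccr2*, a chemokine receptor. It had 1037, 1001 and 878 counts with PBS and 746, 744 and 477 with CGRP (log2 fold change -0.49, SE 0.08, limma-voom, adjusted p = 0.00134). That list, most of it *Ly6c2*, summed to 3749, 4113 and 3312 CPM with PBS and to 3702, 3023 and 2777 CPM with CGRP. The part of these cells in the *Itgb3* result was not tested.

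**Figure D2:**
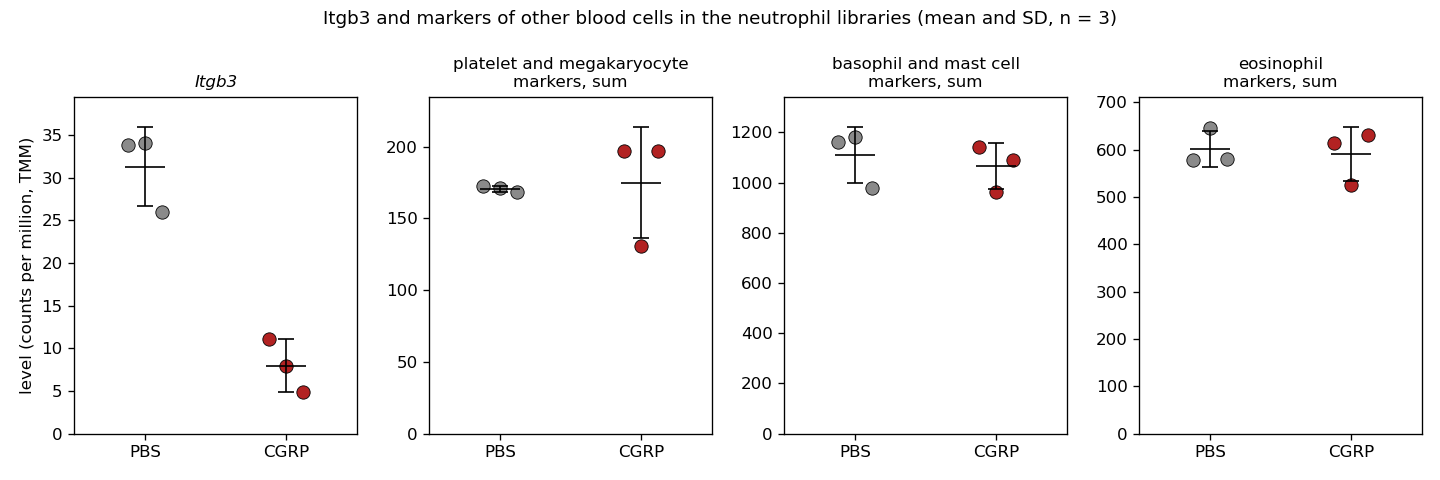
Level in the 6 neutrophil libraries (y axes, CPM after TMM scaling, from 0) of Itgb3 and of the summed markers of platelets, basophils and mast cells, and eosinophils, by treatment (x axis). Points are libraries, and the dash and bars are the mean and SD (n = 3). Itgb3 separates the groups (25.9 to 34.1 against 4.82 to 11.1 CPM), and the marker sums shown overlap. The sum of the T and NK cell markers, not shown, also separates them (114 to 130 against 82.7 to 110 CPM). The part of other cells in the Itgb3 result was not tested.

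*Itgav* (ENSMUSG00000027087, chr2:83724397-83806916, plus strand) had 37.3, 33.9 and 55.0 CPM in the PBS macrophage libraries and 13.2, 25.5 and 20.6 CPM with CGRP, from 130, 113 and 153 counts against 42, 69 and 41. The groups did not overlap. The mean was 42.1 ± 11.3 CPM with PBS and 19.8 ± 6.21 CPM with CGRP (SD, n = 3 each), and the log2 fold change was -1.11 (SE 0.26, 95% interval -1.65 to -0.57), which is 2.16-fold lower (limma-voom, adjusted p = 0.0132). It passed in each of 8 other ways of processing and in all 6 fits without 1 library, with adjusted p up to 0.0497 in the latter.

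In the macrophage libraries, the monocyte and macrophage markers summed to 11363, 11575 and 11920.0 CPM with PBS and to 11909, 13157 and 13765 CPM with CGRP, and 1 of 12 passed, *Ccr2* (1005, 968 and 763 counts against 488, 439 and 337, log2 fold change -0.81, SE 0.12, limma-voom, adjusted p = 0.00048). *Csf1r*, *Adgre1* and *Cd68*, the defining markers, had log2 fold changes of 0.40, 0.29 and 0.03 (limma-voom, adjusted p = 0.153, 0.288 and 0.916). Of the 12 markers, 11 were higher with CGRP and 1 was lower (median log2 fold change 0.21). Over all tested genes, 7.43% passed and 50.7% were higher. The low sums of neutrophil markers did separate, at 336, 395 and 302 CPM with PBS and 446, 424 and 417 CPM with CGRP, although 0 of 8 tested passed in limma-voom, edgeR or DESeq2 (2 at an unadjusted p under 0.05). All 8 were higher with CGRP (median log2 fold change 0.38). Of 11 tested markers of other cell types, 0 passed in these tools (1 at an unadjusted p under 0.05). Their part in the results for *Itgav* and *Itga9* was not tested.

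In neutrophils *Itgav* was low and spread widely with CGRP, at 9.17, 8.59 and 10.4 CPM with PBS and 5.20, 14.4 and 8.77 CPM with CGRP. The groups overlapped, and the log2 fold change was -0.06 (SE 0.31, 95% interval -0.72 to 0.59, limma-voom, adjusted p = 0.968), so that a change of up to these sizes was not detectable. The difference between its effects in macrophages and neutrophils was -1.04 on the log2 scale (SE 0.45, limma-voom interaction, unadjusted p = 0.0292, adjusted p = 0.296) and did not pass. Without 1 library this difference ran from -1.44 to -0.63.

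The 250 bases before the RefSeq start of *Itgav* and of *Itgb1*, the gene of a β subunit that pairs with αv, α9, α5 and α4, are shown because only the former passed in macrophages and because the CGRP receptor signals through cyclic AMP, whose response element (CRE) has known letters. RefSeq windows on GRCm38.p6 were matched for 7 of the 10 genes and not for *Itgb3*, *Itgal* and *Itgb2*. The letters searched, on both strands, were the CRE palindrome TGACGTCA, its shorter form TGACG, which the palindrome contains, CCAAT and the GC box GGGCGG. Capitals mark TGACG and GGGCGG on either strand.
Itgav, chr2:83724147-83724396, plus strand: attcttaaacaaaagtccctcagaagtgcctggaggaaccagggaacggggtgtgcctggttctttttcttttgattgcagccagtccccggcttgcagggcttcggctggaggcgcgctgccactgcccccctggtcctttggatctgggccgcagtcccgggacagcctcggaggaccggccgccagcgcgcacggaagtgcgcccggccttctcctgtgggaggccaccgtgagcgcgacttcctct
Itgb1, chr8:128685404-128685653, plus strand: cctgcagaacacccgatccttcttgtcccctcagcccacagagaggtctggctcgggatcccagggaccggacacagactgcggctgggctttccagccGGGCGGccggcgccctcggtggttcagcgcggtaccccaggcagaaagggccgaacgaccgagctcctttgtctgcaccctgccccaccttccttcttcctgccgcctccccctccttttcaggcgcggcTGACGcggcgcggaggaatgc
The *Itgav* window held none of the 4 motifs. The *Itgb1* window held TGACG, as did that of *Itga9*, whose RefSeq start lies 105002 bases inside the gene, and *Itgb1*, *Itgam*, *Itga4* and *Itga5* held a GC box. None of the 7 windows held the palindrome or CCAAT. Over 32851 windows of the same length, TGACG was in 17.8%, the palindrome in 1.55%, CCAAT in 33.8% and the GC box in 32.7%. A match describes the letters of a window only.

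*Itga9* (ENSMUSG00000039115, chr9:118606690-118901003, plus strand), the α9 subunit, had 2.01, 4.20 and 9.35 CPM in PBS macrophages and 10.0, 15.1 and 11.6 CPM with CGRP, from 7, 14 and 26 counts against 32, 41 and 23. The CPM values did not overlap, but the highest PBS library and the lowest CGRP library were close. The log2 fold change was 1.52 (SE 0.41, 95% interval 0.64 to 2.40), which is 2.88-fold higher (limma-voom, adjusted p = 0.0337). It ran from 0.98 to 2.01 without 1 library. This call was less stable than the others: it passed in 4 of 7 other ways of processing and was lost with edgeR (adjusted p = 0.0716), DESeq2 (adjusted p = 0.0678) and library totals in place of TMM in limma-voom (adjusted p = 0.0525). Without PBS replicate 1 the adjusted p of limma-voom was 0.245, without PBS replicate 2 it was 0.0596, without CGRP replicate 2 it was 0.145 and without CGRP replicate 3 it was 0.0654. In neutrophils *Itga9* had 0 to 3 counts in every library and was not tested.

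Counted over the tested members, 1 of 9 passed in neutrophils and was lower, where 2.53% of all tested genes passed (1.51% higher, 1.02% lower). In macrophages 2 of 9 passed, 1 in each direction, where 7.43% of all tested genes did (3.46% higher, 3.97% lower). The 3 libraries of each group did not overlap for 2 of 9 members in neutrophils and for 4 of 9 in macrophages, where 17.8% and 24.1% of all tested genes did not overlap. The median log2 fold change of the tested members was -0.09 in neutrophils and 0.13 in macrophages, beside medians of 0.0008 and 0.0047 over all tested genes. The 2 members that were not tested are *Itga9* in neutrophils and *Itgb3* in macrophages.

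**Figure D3:**
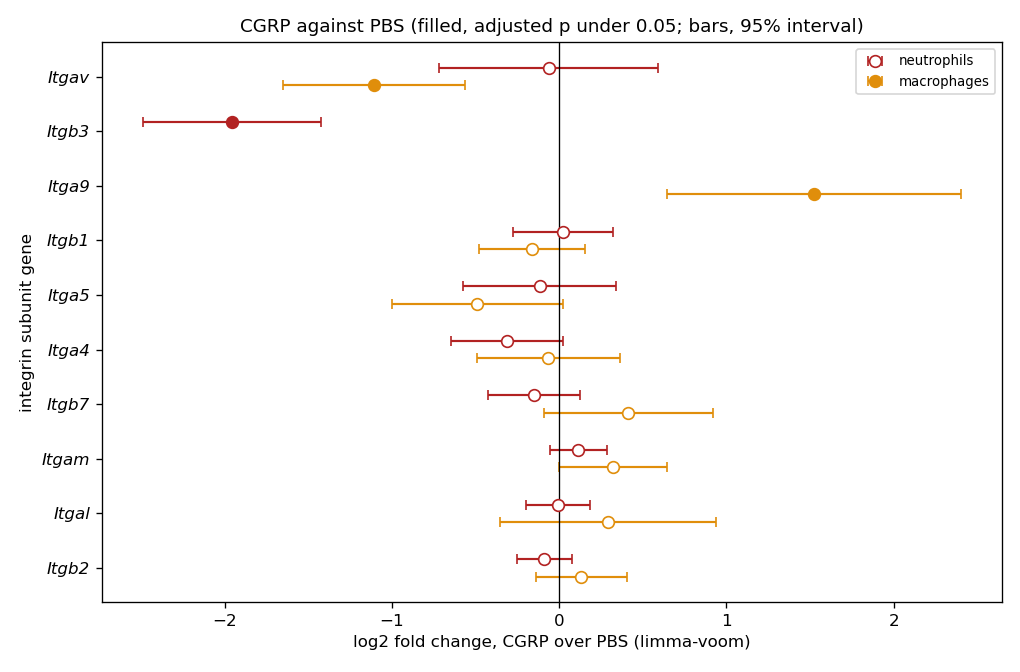
Log2 fold change of CGRP over PBS (x axis) for each integrin subunit gene (y axis) in neutrophils and macrophages, from limma-voom. Bars are 95% intervals and filled points have an adjusted p under 0.05, which are Itgb3 in neutrophils (-1.96) and Itgav (-1.11) and Itga9 (1.52) in macrophages. Itga9 in neutrophils and Itgb3 in macrophages were not tested.

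The β1 subunit and the α5 and α4 subunits that pair with it did not pass with CGRP in either cell type. *Itgb1* (ENSMUSG00000025809, chr8:128685654-128733200, plus strand) had 125, 127 and 156 CPM in PBS macrophages and 102, 132 and 131 CPM with CGRP, which overlapped (log2 fold change -0.16, 95% interval -0.48 to 0.16, limma-voom, adjusted p = 0.612). In neutrophils it was 37.3, 33.1 and 36.0 CPM with PBS and 37.1, 32.0 and 39.0 CPM with CGRP, and the log2 fold change was 0.02 (95% interval -0.28 to 0.32, limma-voom, adjusted p = 0.979). Both intervals of *Itgb1* lie above the -1.11 measured for *Itgav* in macrophages.

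*Itga5* (ENSMUSG00000000555, chr15:103344286-103366763, minus strand), the α subunit of the fibronectin receptor, had 18.1, 17.4 and 25.2 CPM in PBS macrophages and 11.9, 14.04 and 17.1 CPM with CGRP. The groups did not overlap, yet the log2 fold change of -0.49 (SE 0.24, 95% interval -1.001 to 0.02) did not pass (limma-voom, adjusted p = 0.276). In neutrophils the values were 14.5, 11.97 and 15.9 CPM against 13.01, 11.1 and 14.9 CPM, with a log2 fold change of -0.12 (limma-voom, adjusted p = 0.890), and the groups overlapped.

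*Itga4* (ENSMUSG00000027009, chr2:79255426-79333123, plus strand), the α4 subunit that pairs with β1 or β7, had 50.6, 37.1 and 42.5 CPM in PBS neutrophils and 29.6, 40.5 and 32.9 CPM with CGRP. A single CGRP library lay within the PBS range, and the log2 fold change was -0.31 (SE 0.16, 95% interval -0.65 to 0.02, limma-voom, adjusted p = 0.435). In macrophages *Itga4* had 22.4, 23.4 and 21.9 CPM with PBS and 21.9, 18.5 and 25.2 CPM with CGRP, and the groups overlapped (log2 fold change -0.06, limma-voom, adjusted p = 0.900).

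*Itgb7* (ENSMUSG00000001281, chr15:102215995-102231944, minus strand), the β7 subunit of the gut-homing receptor α4β7, had 48.1, 49.7 and 63.0 CPM in PBS neutrophils and 47.8, 46.6 and 46.9 CPM with CGRP. All CGRP libraries lay below all PBS libraries, by as little as 47.8 against 48.1 CPM. In macrophages the order was the opposite, with 12.9, 13.2 and 14.02 CPM with PBS and 15.98, 15.5 and 24.1 CPM with CGRP. Neither difference passed, with log2 fold changes of -0.15 (SE 0.13, limma-voom, adjusted p = 0.706) and 0.41 (SE 0.24, limma-voom, adjusted p = 0.367).

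The genes of the leukocyte β2 integrins did not pass in either cell type. *Itgb2* (ENSMUSG00000000290, chr10:77530252-77565708, plus strand), the shared β subunit, had 841, 860 and 735 CPM in PBS neutrophils and 795, 727 and 742 CPM with CGRP, and 521, 443 and 447 CPM in PBS macrophages against 465, 518 and 562 CPM with CGRP. The groups overlapped in both cell types. Its log2 fold change was -0.09 in neutrophils (95% interval -0.26 to 0.08, limma-voom, adjusted p = 0.718) and 0.13 in macrophages (95% interval -0.14 to 0.41, limma-voom, adjusted p = 0.630).

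*Itgam* (ENSMUSG00000030786, chr7:128062640-128118491, plus strand), the αM subunit also known as CD11b, had 538, 540 and 498 CPM in PBS neutrophils and 528, 608 and 553 CPM with CGRP (log2 fold change 0.11, 95% interval -0.06 to 0.28, limma-voom, adjusted p = 0.634). In macrophages it had 224, 178 and 222 CPM with PBS and 217, 308 and 258 CPM with CGRP (log2 fold change 0.32, 95% interval 0.0002 to 0.64, limma-voom, adjusted p = 0.252). Treated and untreated libraries overlapped in both cell types. The other row with this symbol (ENSMUSG00000108596, chr7:128062683-128128160) overlaps *Itgam* on the same strand and had at most 7 counts in a library, so reads of the pair may have been split or dropped in counting.

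*Itgal* (ENSMUSG00000030830, chr7:127296260-127335138, plus strand), the αL subunit of LFA-1, had 147, 157 and 157 CPM in PBS neutrophils and 140, 155 and 160 CPM with CGRP. In macrophages it had 12.6, 11.1 and 24.4 CPM with PBS and 12.8, 20.3 and 24.7 CPM with CGRP. The groups overlapped in both cell types, and the log2 fold changes were -0.01 (95% interval -0.20 to 0.18, limma-voom, adjusted p = 0.987) and 0.29 (95% interval -0.36 to 0.94, limma-voom, adjusted p = 0.662).

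An interaction term over the 12 libraries asked whether CGRP acted differently on a subunit in neutrophils and macrophages. Of the 10 members, 0 passed in limma-voom, edgeR or DESeq2, where 2.36% of all tested genes passed in limma-voom. At an unadjusted p under 0.05 there were 3: *Itgav*, *Itgb3* (1.98, SE 0.88, limma-voom, adjusted p = 0.324) and *Itgb7* (0.57, SE 0.27, limma-voom, adjusted p = 0.349). For *Itgb3* this rests on macrophage libraries with 0 to 6 counts, and the value ran from 1.27 to 2.73 without 1 library. The falls of *Itgb3* in neutrophils and of *Itgav* in macrophages were therefore each called in 1 cell type but were not shown to differ from the effect in the other.

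More members passed between the cell types than between the treatments. Macrophages had more αv, α9 and β1 transcript, whereas neutrophils had more β3, αL, β7, αM, α4 and β2. With PBS, all 10 members passed (4 higher and 6 lower in macrophages), where 67.9% of all tested genes did (32.5% higher, 35.4% lower), and 9 passed with DESeq2 and without the filter on low counts. With CGRP, 9 of 10 passed (3 higher and 6 lower), where 64.7% of all genes did (30.9% higher, 33.7% lower). The shares among members therefore stand against backgrounds of well over 50%. The median difference over all tested genes was -0.03 on the log2 scale in both comparisons, which share no library, and with library totals in place of TMM it was 0.06 with PBS and -0.05 with CGRP. *Itgb3* and *Itga9* are among the members counted although each reached the filter on low counts through 1 cell type alone.

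Among members higher in macrophages, *Itgav* differed by 2.10 on the log2 scale with PBS (SE 0.29, 4.30-fold, limma-voom, adjusted p = 1.27e-06) and by 1.06 with CGRP (SE 0.34, 2.09-fold, limma-voom, adjusted p = 0.00864). With CGRP the libraries of the cell types overlapped for *Itgav*, at 5.20 to 14.4 CPM in neutrophils and 13.2 to 25.5 CPM in macrophages, and the call was lost without CGRP neutrophil replicate 1 (adjusted p = 0.0991) or CGRP macrophage replicate 2 (adjusted p = 0.0547 in limma-voom). *Itgb1* was higher by 1.92 with PBS (SE 0.15, 3.79-fold, limma-voom, adjusted p = 9.59e-11) and by 1.75 with CGRP (SE 0.15, limma-voom, adjusted p = 9.26e-10). The fitted difference of *Itga9* was 3.15 with PBS and 4.45 with CGRP, and since its neutrophil libraries were at or under the floor of 3 counts, these sizes depend on the constant that voom adds to each count. They ran from 2.45 to 3.67 and from 3.42 to 4.99 without 1 library.

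*Itga5* was at the edge of the threshold. It was higher in PBS macrophages by 0.49 (SE 0.21, limma-voom, adjusted p = 0.0445) and passed in 2 of 7 other ways of processing. The adjusted p of limma-voom rose above 0.05 without PBS neutrophil replicate 1 (0.0766) or 2 (0.186), CGRP neutrophil replicate 1 (0.0523) or 2 (0.0510), PBS macrophage replicate 3 (0.176) or CGRP macrophage replicate 2 (0.0503). With CGRP its difference was 0.12 (SE 0.24, 95% interval -0.37 to 0.62, limma-voom, adjusted p = 0.669), and the libraries overlapped.

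Among members lower in macrophages, *Itgb3* had macrophage libraries of 0 to 6 counts, so that its fitted differences of -5.24 with PBS and -3.26 with CGRP on the log2 scale also depend on that constant. The CGRP value was -3.97 without CGRP macrophage replicate 1 and -2.51 without CGRP macrophage replicate 3. *Itgal* differed by -3.37 (SE 0.21, 10.4-fold lower, limma-voom, adjusted p = 2.64e-12) and -3.07 (SE 0.21, 8.38-fold lower, limma-voom, adjusted p = 1.70e-11). *Itgb7* was lower by 3.94-fold with PBS and 2.65-fold with CGRP, and *Itgam* by 2.54-fold and 2.18-fold. The smallest differences were those of *Itga4* (1.90-fold and 1.59-fold) and *Itgb2* (1.73-fold and 1.47-fold). *Itgal*, *Itgb7*, *Itgam*, *Itga4* and *Itgb2* passed in both comparisons, the largest adjusted p being 0.00381 for *Itga4* with CGRP (limma-voom).

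**Figure D4:**
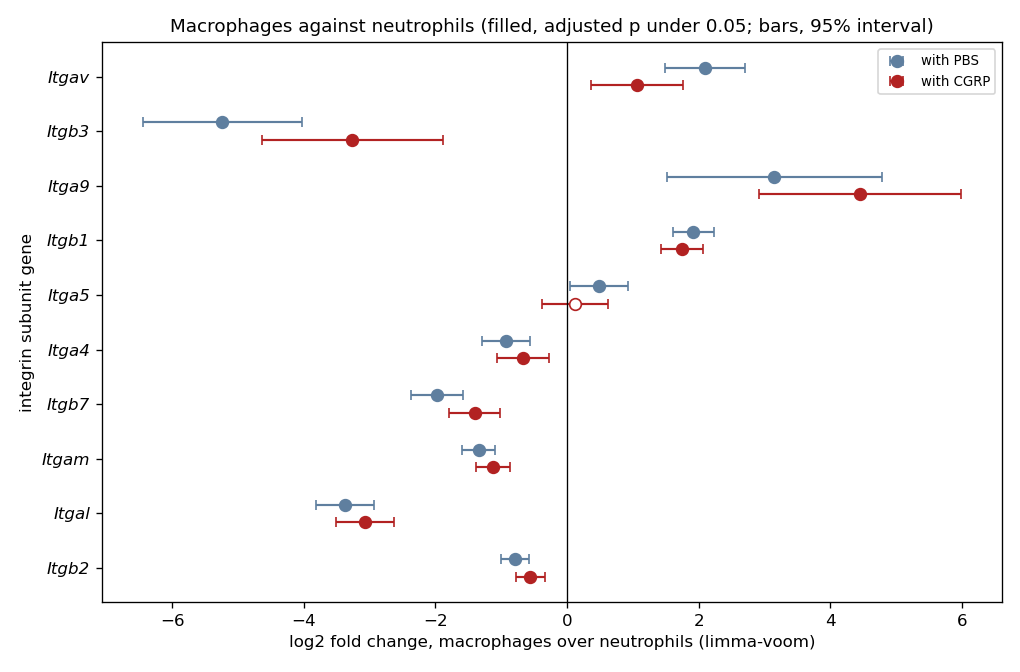
Log2 difference of macrophages over neutrophils (x axis) for each integrin subunit gene (y axis), with PBS and with CGRP, from limma-voom. Bars are 95% intervals and filled points have an adjusted p under 0.05. Itgav, Itga9 and Itgb1 lie right of 0 in both comparisons, Itgb3, Itgal, Itgb7, Itgam, Itga4 and Itgb2 lie left of it in both, and only Itga5 with CGRP is open.

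To compare genes with each other, CPM was divided by the length of the longest annotated transcript. Because priming with oligo-dT keeps reads near the 3′ end, counts depend little on length, so that this scale may overcorrect, and the order on plain CPM is given where it differs. In PBS neutrophils the order per kb was *Itgb2* (273 ± 22.8 CPM per kb, SD, n = 3), *Itgam* (112 ± 5.05), *Itgal* (29.5 ± 1.08), *Itgb7* (20.0 ± 3.06), *Itgb1* (9.30 ± 0.558), *Itgb3* (5.41 ± 0.800), *Itga4* (4.44 ± 0.693), *Itga5* (3.20 ± 0.447), *Itgav* (1.33 ± 0.135) and *Itga9* (0.0592 ± 0.0513). Only *Itgb3* and *Itga4* overlapped among neighbours, and on plain CPM *Itga4* came ahead of *Itgb1* and *Itgb3*. With CGRP *Itgb3* stood at 1.37 ± 0.539 CPM per kb, place 8 (place 9 on plain CPM), overlapping with *Itgav* at 1.34 ± 0.655.

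In PBS macrophages the order per kb was *Itgb2* (158 ± 14.8 CPM per kb, SD, n = 3), *Itgam* (44.4 ± 5.57), *Itgb1* (35.6 ± 4.56), *Itgav* (5.96 ± 1.61), *Itgb7* (4.98 ± 0.216), *Itga5* (4.58 ± 0.976), *Itgal* (3.07 ± 1.40), *Itga4* (2.31 ± 0.0756), *Itga9* (0.738 ± 0.537) and *Itgb3* (0.155 ± 0.138). Neighbours overlapped between *Itgam* and *Itgb1*, from *Itgav* through *Itga4*, and between *Itga9* and *Itgb3*. On plain CPM *Itga4* came ahead of *Itga5* and *Itgal*, and *Itgb7* behind them. With CGRP *Itgav* moved to 2.80 ± 0.880 CPM per kb, place 7 (place 5 on plain CPM), where it overlapped with *Itga5* at 3.25 ± 0.592 and *Itga4* at 2.24 ± 0.342. *Itgb2* and *Itgam* were first and second in all 4 groups on both scales.

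The remaining 16 integrin α and β subunit genes were mostly too low to test. In neutrophils 5 were tested and 0 passed (limma-voom, edgeR and DESeq2, 0 at an unadjusted p under 0.05), and in macrophages 3 were tested and 0 passed by the same tools (1 at an unadjusted p under 0.05). In the interaction 1 of 5 passed in each of these tools, where 2.36% of all tested genes did in limma-voom. This was *Itga1*, which reached the filter through its neutrophil counts and had 1 to 16 counts in macrophage libraries. The median log2 fold change of the tested genes was 0.07 in neutrophils and -0.01 in macrophages. *Itgb5*, whose product also pairs with αv, had the most counts summed over the 12 libraries, though not in neutrophils, at 37, 27 and 34 in PBS and 45, 40 and 31 in CGRP neutrophils, and 210, 221 and 322 in PBS and 232, 258 and 221 in CGRP macrophages. It overlapped between treatments in both cell types (log2 fold changes 0.34 and 0.25, limma-voom, adjusted p = 0.610 and 0.587).

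Talin, kindlins and the adaptors around them switch integrins into their binding state, and 34 genes of this machinery were listed with earlier results of these data known. Of these, 3 of 27 tested passed in neutrophils, with 2 higher, and 7 of 26 in macrophages, with 3 higher, against the 2.53% and 7.43% of all tested genes given above. The median log2 fold change of the list was -0.13 in neutrophils and -0.10 in macrophages. Passing or not, 5 tested genes were higher and 22 lower in neutrophils, and 11 were higher and 15 lower in macrophages. Of all tested genes, 50.2% were higher in neutrophils and 50.7% in macrophages. An unadjusted p under 0.05 (limma-voom) was reached by 13 of 27 and 12 of 26. The share of all tested genes at that level is not given here, so these counts stand without a background. In the interaction, 4 of 27 passed (3 higher and 1 lower in macrophages), where 2.36% of all tested genes did.

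*Cytip*, which binds cytohesin-1, rose from 133 ± 12.7 to 218 ± 38.4 CPM in neutrophils and from 35.9 ± 6.53 to 370 ± 70.1 CPM in macrophages (log2 fold changes 0.73 and 3.35, SE 0.11 and 0.19, limma-voom, adjusted p = 0.000553 and 9.53e-09). *Cyth1*, cytohesin-1 itself, an exchange factor that binds the β2 tail, rose by 0.93 and 2.27 (SE 0.13 and 0.19, limma-voom, adjusted p = 0.000156 and 1.76e-06). *Pxn* (paxillin, a focal adhesion scaffold that binds the α4 tail) rose in macrophages by 0.98 (SE 0.16, limma-voom, adjusted p = 0.000949), while in neutrophils its log2 fold change was -0.05 (adjusted p = 0.894). All 3 passed the interaction with a larger effect in macrophages (limma-voom, adjusted p = 4.07e-07, 0.00146 and 0.00177).

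*Apbb1ip*, the Rap1 effector RIAM that recruits talin to integrins, fell in macrophages from 114 ± 15.8 to 35.1 ± 6.35 CPM (SD, n = 3 each). Its counts were 431, 320 and 342 with PBS and 90, 98 and 81 with CGRP, without overlap, and the log2 fold change was -1.72 (SE 0.18, limma-voom, adjusted p = 1.18e-05). In neutrophils it was -0.19 (SE 0.08, limma-voom, adjusted p = 0.310), and the interaction passed (-1.52, SE 0.19, limma-voom, adjusted p = 2.93e-05). *Ptk2b*, the adhesion kinase PYK2, fell in neutrophils from 131 ± 11.7 to 75.3 ± 8.18 CPM (log2 fold change -0.78, SE 0.11, limma-voom, adjusted p = 0.000206). In macrophages it was -0.55 (SE 0.18, adjusted p = 0.0703 in limma-voom), and it passed in the single fit over 12 libraries (adjusted p = 0.0232) and without PBS replicate 2 (adjusted p = 0.0410).

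*Fyb* and *Vcl* also fell in macrophages. *Fyb*, the adaptor ADAP, changed by -0.62 (SE 0.12, limma-voom, adjusted p = 0.00432) and *Vcl* (vinculin, which links talin to actin) by -1.08 (SE 0.27, limma-voom, adjusted p = 0.0222). *Vcl* no longer passed in limma-voom without PBS replicate 1 (adjusted p = 0.0610) or CGRP replicate 1 (0.0616), 2 (0.118) or 3 (0.0509). In neutrophils the log2 fold changes were -0.31 for *Fyb* and -0.30 for *Vcl* (limma-voom, adjusted p = 0.0956 and 0.238), and *Fyb* passed there without PBS replicate 3 (adjusted p = 0.0382).

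**Figure D5:**
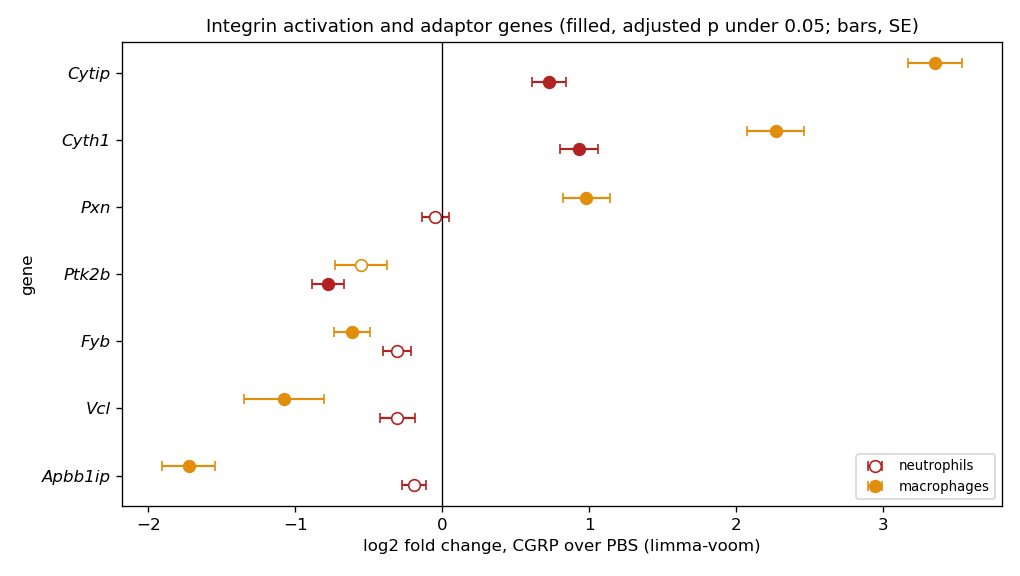
Log2 fold change of CGRP over PBS (x axis) for 7 integrin activation and adaptor genes (y axis) with an adjusted p under 0.05 in neutrophils or macrophages, from limma-voom. Bars are the SE and filled points have an adjusted p under 0.05. Cytip and Cyth1 are higher in both cell types, Pxn is higher and Apbb1ip, Vcl and Fyb are lower in macrophages, and Ptk2b is lower in neutrophils.

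Of 24 genes whose products bind or accompany integrins, 12 were tested in neutrophils and 9 in macrophages, and 1 passed in each, higher, where 1.51% and 3.46% of all tested genes passed as higher. This was *Thbs1*, which encodes thrombospondin-1, a ligand of αv and β1 integrins. It rose by 2.39 in neutrophils and 5.02 in macrophages on the log2 scale (SE 0.12 and 0.19, limma-voom, adjusted p = 6.07e-11 and 1.43e-10). The list's median log2 fold change was 0.10 in both cell types. *Spp1* (osteopontin, bound by αv and α9 integrins) had the most counts summed over the 12 libraries, led by the macrophages, and did not pass, with log2 fold changes of 0.35 in neutrophils and -0.25 in macrophages (limma-voom, adjusted p = 0.164 and 0.329).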

How the data were processed

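RNA was dT-primed and UMI-tagged, which places reads near the 3′ end. The authors ran nfCore/RNAseq with UMI handling (STAR on GRCm38, then featureCounts) and deposited raw counts in 1 table per cell type. Annotation release and strand setting are not given in the sources used here. Of 52636 gene identifiers, 52403 were found in GENCODE M21, which gave positions and lengths. Opposite-strand genes that overlap a member reached at most 7 counts. No 2 libraries were identical.

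Counts were filtered with edgeR's filterByExpr, scaled by TMM and tested by limma-voom (two-sided, Benjamini-Hochberg over all genes tested, threshold 0.05). Each cell type was fitted on its 6 libraries, and the interaction and cell type contrasts on all 12. Alternatives were edgeR quasi-likelihood, DESeq2, its size factors, library totals, no filter, at least 10 counts in every library, a replicate block, a single 12-library fit and leaving out each library. The steps were tested on simulated data. Members and lists were chosen with earlier results of these data known, and *Itgav* and *Itgb3* are genes the study names. Text names all members, and of each list the genes that passed with CGRP or, with none, the most abundant, plus defining markers; 1 adaptor gene that passed is not reported here. Software was R 4.3.3, limma 3.58.1, edgeR 4.0.16, DESeq2 1.42.0 and Python 3.11.15.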

Additional observations from a re-analysis of the deposited data

Results flagged for a closer look

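*Itgb7* drew attention because all 3 CGRP libraries lay below all 3 PBS libraries in neutrophils (46.6 to 47.8 against 48.1 to 63.0 CPM) and above them in macrophages (15.5 to 24.1 against 12.9 to 14.02 CPM). The difference between the effects was 0.57 on the log2 scale (SE 0.27) and did not pass (limma-voom interaction, adjusted p = 0.349).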

How the results depend on the processing

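*Itgb3* in neutrophils and *Itgav* in macrophages kept their direction and passed under all alternatives run. *Itga9* did not, so that 1 member in place of 2 passed in macrophages with edgeR, DESeq2, library totals without TMM, and at least 10 counts in every library, which leaves *Itga9* out, and 1 to 2 when leaving out a library. Over all genes, 4599 in place of 6914 passed between the cell types with CGRP at 10 counts in every library, where fewer genes were tested. The single 12-library fit called 137 genes in neutrophils (248 in the separate fit), 1050 in macrophages (698) and 11 adaptor genes in macrophages (7). Leaving out a library gave 138 to 234 calls in neutrophils (138 without PBS replicate 1 or 2, 153 without CGRP replicate 2), 347 to 765 in macrophages (347 without PBS replicate 1, 348 and 439 without CGRP replicate 2 or 3) and 149 to 328 for the interaction (149 without PBS macrophage replicate 1). Library totals gave 150 higher and 64 lower calls in neutrophils (148 and 100 with TMM) 88 and 154 in the interaction (129 and 123), whose median over all genes moved from 0.02 to -0.10, 245 and 405 in macrophages (325 and 373) and 3720 and 3441 between PBS cell types (3472 and 3791). The cause was not tested.

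Directions reversed only for differences that did not pass. In neutrophils *Itgav* was 0.050 with edgeR, 0.037 with DESeq2, 0.049 with the replicate block and -0.50 to 0.36 without 1 library. There *Itgal* was 0.044 and *Pxn* 0.012 with library totals, and without 1 library *Itgal* was -0.047 to 0.057, *Itgb1* -0.041 to 0.11 and *Pxn* -0.10 to 0.023. *Itga4* in macrophages was -0.15 to 0.050 without 1 library. *Itga5* between CGRP cell types was -0.083 with the replicate block and -0.017 to 0.27 without 1 library.

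The replicate block gave 11 adaptor genes in macrophages (7 without it) and, over all genes, 289 calls in neutrophils and 1007 in macrophages. It called 8 of 10 members between PBS cell types, since *Itga9* (1.94) and *Itga5* had adjusted p values of 0.0810 and 0.423 with it, and *Ptk2b* in macrophages (-0.54) passed at 0.0304 (limma-voom). Libraries share only a number, and not each correlated best with its own: deviations of same-numbered libraries correlated at 0.04, -0.01 and 0.14 in neutrophils and 0.06, -0.18 and 0.27 in macrophages. Depth limited *Itga9* in neutrophils and *Itgb3* in macrophages.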

Other observations

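*Itga1*, the α1 subunit of a collagen receptor and a gene chosen here after its values were seen, had 1, 2 and 2 counts in PBS macrophages and 16, 8 and 6 with CGRP, without overlap. It was left out by the filter within macrophages. The ratio of summed counts, adjusted for library size, was 7.31 (30 against 5 counts, 95% Poisson interval 2.81 to 24.1, which covers counting error only). Without the filter its log2 fold change was 2.53 (limma-voom, adjusted p = 0.00888). In neutrophils it had 82, 101 and 72 counts with PBS and 80, 70 and 42 with CGRP (log2 fold change -0.33, SE 0.17, limma-voom, adjusted p = 0.448).

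*Itga6*, the α6 subunit of laminin receptors, also chosen after its values were seen, had 188, 182 and 261 counts in PBS macrophages and 105, 164 and 88 with CGRP. The log2 fold change was -0.54 (SE 0.24) and did not pass (limma-voom, adjusted p = 0.215).

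The macrophage libraries held 635, 979 and 680 CPM of summed platelet and megakaryocyte markers with PBS and 966, 784 and 635 CPM with CGRP, most of it from *Pf4* (1232 to 3251 counts), while *Gp9* had 0 to 2 counts. *Itgb3* had 0 to 6 counts in the same libraries.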
